A study of Homo sapiens with 12 samples.

Results

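The genes described here are 45 human genes of ribosome biogenesis and of the RNA exosome, with the transcription factor MYC. They were listed by name, as genes of RNA polymerase I, nucleolar rRNA processing and the exosome, with no threshold on a measured value, but with earlier results of these data known. Of the 45, 41 had a feature of their own on the array and were tested among 22411 genes in all. The features of NOP56 and DKC1 carry the symbols of small nucleolar RNAs as well, and DDX18 and GNL3 had no feature with a single symbol in the annotation used, so these 4 genes have no value here. The RNA came from A549, a human lung adenocarcinoma line, on 12 GeneChip Human Transcriptome Arrays, 3 in each of 4 groups. Control cells were wild-type A549 and TUSC3 KO cells were A549 in which a CRISPR construct had disrupted TUSC3, an oxidoreductase subunit of the oligosaccharyltransferase. Each genotype received DMSO, the solvent, or tunicamycin (TM) at 3 ug/ml for 16 hours, an inhibitor of N-linked glycosylation that stresses the ER. The KO arrays came from 1 clone, so the knockout and other properties of that clone cannot be told apart.

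Ribosomes are built in the nucleolus. RNA polymerase I makes the long precursor rRNA, small nucleolar RNPs (snoRNPs) guide its chemical modification, and large assembly machines cut and fold it into the small and the large subunit. The RNA exosome, a ring of proteins that feeds RNA to nucleases, trims rRNA ends and degrades the excised spacers. MYC, which binds E-box DNA as a pair with MAX, is known to drive many of these genes in growing cells, and ER stress is known to slow ribosome production.

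The deposited values are log2 intensities from RMA, and differences below are on this log2 scale unless a fold is named. Group means were compared with limma, with genes called where p, adjusted over all 22411 genes, was under 0.05. TUSC3 itself stood at 7.16, 7.03 and 7.10 on the control DMSO arrays and at 5.51, 5.50 and 5.57 on the TUSC3 KO DMSO arrays, and no KO array reached a control array under TM either. Replicate arrays of a group had correlations of 0.9958 to 0.9985 across the genes tested, which are not independent replicates. The sources used here do not say whether the 3 arrays of a group came from separate cultures, so the p-values may cover only technical spread between these samples. All 7 genes of an ER stress check list rose with TM in both genotypes, but not equally. Under DMSO, 4 of the 7 already stood higher in the KO clone by limma and 0 stood lower. For 4 of the 7 the rise with TM was called smaller in the clone (limma interaction, median -0.18 over the list). That share was 57.1%, beside 3.73% of all genes with an interaction called below 0. The epithelial keratin KRT8 had group means from 11.5 to 11.8, while PTPRC of blood cells stayed at 2.47 to 2.52, DCN of fibroblasts at 2.34 to 2.75 and PECAM1 of endothelium at 3.24 to 3.48, below the median of all values (4.77). Of 6 fibroblast, 4 blood and 4 endothelial markers, only DCN (0.41) and CD14 (-0.34) were called, both for TM in TUSC3 KO cells. The epithelial markers did differ between the genotypes. Under TM, 3 of 6 were called higher in the KO clone, KRT19 (0.60), EPCAM (0.54) and CDH1 (0.53), and KRT7 was called lower (-0.18). Of all genes, 8.99% were called higher and 7.97% lower in that comparison. Under DMSO, 2 were called higher, KRT19 (0.36) and EPCAM (0.30), beside 6.58% of all genes. The interaction was called above 0 for 3 of the 6, CDH1, EPCAM and KRT19, beside 4.18% of all genes. These markers also responded to TM. In control cells KRT19 (-0.37), KRT8 (-0.37) and EPCAM (-0.33) fell and KRT7 rose (0.23). In TUSC3 KO cells KRT8 (-0.23), KRT19 (-0.14) and KRT18 (-0.10) fell and CDH1 rose (0.52). Of all genes, 13.6% fell and 11.2% rose in control cells, and 14.9% fell and 12.5% rose in TUSC3 KO cells. In these bulk samples, fewer cells of a kind and less RNA per cell cannot be told apart.

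MYC and MAX recognise the E-box CACGTG, which reads the same on both strands, and the promoters of the genes described here were searched for it. RefSeq windows of 300 bases (GRCh38.p14), 250 before and 50 after a start site, were available for 38 of the 45 genes, and 16 of them (42.1%) held CACGTG. Of all 27305 genes with a window, 8.77% held it, and of the genes tested on the arrays 10.5%. In 15 of the 16 a motif began within 50 bases of a start site, and LYAR had its motif 64 bases upstream. The runs of 30 bases below belong to genes whose array values are given in the following paragraphs. They show how close the motif sits to the start of transcription. UTP4, whose array values are also given, has a motif with its first base at -16, and its run is not printed. The E-box is in capitals.
EXOSC5, first base of the E-box at +15: caactgcagccgCACGTGggctcggcgcga
EXOSC5, first base at -89: taaacgctaagcCACGTGcggacgcccagg
FBL, first base at +7: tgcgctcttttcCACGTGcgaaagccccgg
MRTO4, first base at +15: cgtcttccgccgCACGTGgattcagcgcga
RRP9, first base at -5: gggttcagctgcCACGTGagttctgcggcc
UTP20, first base at -10: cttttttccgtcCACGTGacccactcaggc
WDR43, first base at +4: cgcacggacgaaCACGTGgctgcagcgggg
The first transcribed base is +1, so the motifs of MRTO4, FBL, WDR43 and the nearer one of EXOSC5 lie in the first transcribed bases. That of UTP20 lies upstream of the start, that of RRP9 runs across it, and the second one of EXOSC5 is farther upstream than any other among these genes. The runs of EXOSC5 are at chr19:41397328-41397357 and chr19:41397431-41397460 on the minus strand. That of FBL is at chr19:39846356-39846385 on the minus strand and that of RRP9 at chr3:51941892-51941921 on the minus strand. The plus strand holds those of MRTO4 at chr1:19251807-19251836, UTP20 at chr12:101280083-101280112 and WDR43 at chr2:28894658-28894687. With the related forms CACGCG and CATGTG counted on both strands, the share was 73.7% of the 38 genes and 31.3% of all genes, so the ratio of these shares was smaller. A match describes the letters and is not a binding site. NOP58, NOLC1, RRP12, DDX18 and MYC, and BOP1 and RRS1, had no window and were not searched.

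Between the genotypes, 13 of the 41 genes were called higher in TUSC3 KO cells without TM, and 27 were called lower with TM. The remaining genes were not called in these comparisons. Over all 41 genes, 37 estimates were above 0 and 4 below it without TM, and 2 were above and 39 below with TM. Centred on its mean over all arrays, the median gene stood at -0.03 ± 0.03 (SD, n = 3) on the control DMSO arrays and at 0.06 ± 0.02 (SD, n = 3) on the control TM arrays. On the TUSC3 KO arrays the same median was 0.07 ± 0.01 (SD, n = 3) with DMSO and -0.10 ± 0.03 (SD, n = 3) with TM. The changes were small for each gene and reached 1.51-fold at most, for EXOSC2.

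**Figure D1:**
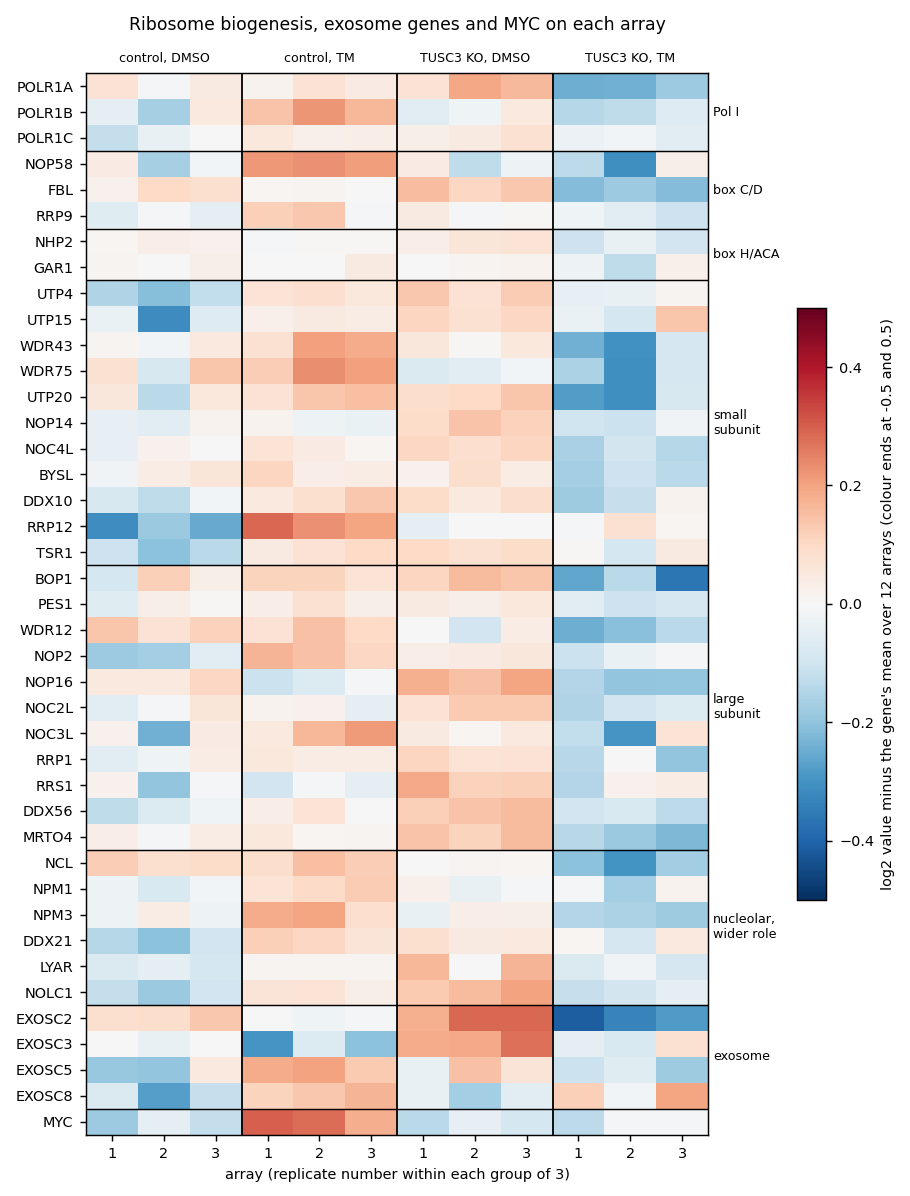
Each row is 1 of the 41 genes, grouped by role, and each column 1 of the 12 arrays. Colour gives the log2 value minus the gene's mean over the 12 arrays, and the 3 TUSC3 KO TM arrays on the right are blue in most rows, with array medians between -0.13 and -0.08.

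Under DMSO, 13 of the 41 genes were higher in the TUSC3 KO than in the control cells and 0 were lower, where 6.58% of all genes tested were called higher and 6.11% lower by limma. Of the lower direction, 2 genes had an unadjusted p under 0.05, and a plain test of the 2 groups alone, the kind named in the methods, called 5 higher and 1 lower after Benjamini-Hochberg adjustment. The median difference was 0.11 for the 41 genes and 0.01 for all genes. Quantile normalization of the arrays again gave 13 higher and 2 lower, the lower being WDR12 and NCL. Without TUSC3 KO DMSO replicate 3, the number called higher was 7. Those called higher were UTP4, NOP14, NOC4L, RRP12 and TSR1 of the small subunit, NOP2, DDX56 and MRTO4 of the large subunit, DDX21, LYAR and NOLC1 of the wider nucleolus, and EXOSC2 and EXOSC3. None of the 3 polymerase subunits, the 5 snoRNP proteins or MYC was called in this comparison.

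Under TM the comparison between the genotypes ran the other way. Of the 41 genes, 27 were lower in the KO cells than in the control cells and 0 were higher, against 7.97% of all genes called lower and 8.99% called higher by limma. In the higher direction, 1 gene had an unadjusted p under 0.05. The plain test called 11 lower and 0 higher. The median difference was -0.17 for the 41 genes and -0.02 for all genes. Within the 41, 7 genes were called higher under DMSO and lower under TM, namely NOC4L, RRP12, NOP2, DDX56, MRTO4, NOLC1 and EXOSC2. The share of all genes with this joint pattern was not counted.

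With TM, 15 of the 41 genes rose in control cells and 2 fell, NOP16 and EXOSC3, where 11.2% of all genes were called higher and 13.6% lower. In TUSC3 KO cells 24 fell with TM and 1 rose, EXOSC8, where 14.9% of all genes were called lower and 12.5% higher. The plain test called 9 higher and 1 lower in control cells, and 17 lower and 0 higher in TUSC3 KO cells. The median difference with TM was 0.11 in control and -0.17 in TUSC3 KO cells, beside 0.02 and -0.01 for all genes. Of the 41, UTP4, DDX10, DDX56, NPM3 and NOLC1 rose in control and fell in TUSC3 KO cells. Another 9 rose in control cells and were not called in TUSC3 KO cells, while 17 were not called in control cells and fell in TUSC3 KO cells. The shares of all genes with these joint patterns were not counted.

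The interaction term tests these differences of the TM response directly. It was called below 0, a lower response in TUSC3 KO than in control cells, for 29 of the 41 genes and above 0 for none of them, where 3.73% of all genes were called lower and 4.18% higher by limma. In the direction with a count of 0, an unadjusted p under 0.05 was reached by 0 genes, and the plain test has no interaction term. The estimate was negative for all 41 genes, from -0.48 for EXOSC2 to -0.05 for EXOSC3, and its median was -0.28 beside -0.03 for all genes. The 4 comparisons share groups of arrays with each other and with the interaction, so their counts are not independent.

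Part of these calls depended on the scaling of the arrays or on the test. With array median centring the interaction was called for 22 genes, and the calls of POLR1B, POLR1C, NOP14, DDX10, PES1, NOC2L and NCL were lost (adjusted p from 0.0547 to 0.1172). Centring also ended the lower level in TUSC3 KO under TM of RRP9, DDX10, PES1, NOP16, RRP1, DDX56, NPM1 and NOLC1 (adjusted p from 0.0512 to 0.1931) and the higher level of EXOSC2 under DMSO (adjusted p = 0.0672). Of the TM responses it ended those of NOP58, DDX10, NPM1 and EXOSC3 in control cells (adjusted p from 0.0528 to 0.103) and of UTP4, DDX10, PES1, WDR12 and EXOSC8 in TUSC3 KO cells (adjusted p from 0.0519 to 0.1121, all from limma). Quantile normalization again ended the calls of NOC4L and MRTO4 under DMSO, RRP9 under TM, EXOSC3 with TM in control cells and PES1 with TM in TUSC3 KO cells. The 4 comparisons without the interaction held 13, 27, 17 and 25 calls, in the order given above. Of these calls, 41 did not pass the plain test and 14 did not pass with only the 2 groups in the fit. Those failing the plain test included the lower levels of NOP58, RRP9, WDR43, WDR75, UTP20, BOP1 and MYC in TUSC3 KO under TM. Their adjusted p ran from 0.0628 to 0.2446 in that test. It was also failed by the rises of EXOSC5 and NPM3 in control cells and the falls of WDR43 and UTP20 in TUSC3 KO cells (adjusted p from 0.0597 to 0.1084). Without a variance trend 5 calls were lost, among them the interaction of POLR1C (adjusted p = 0.058).

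**Figure D2:**
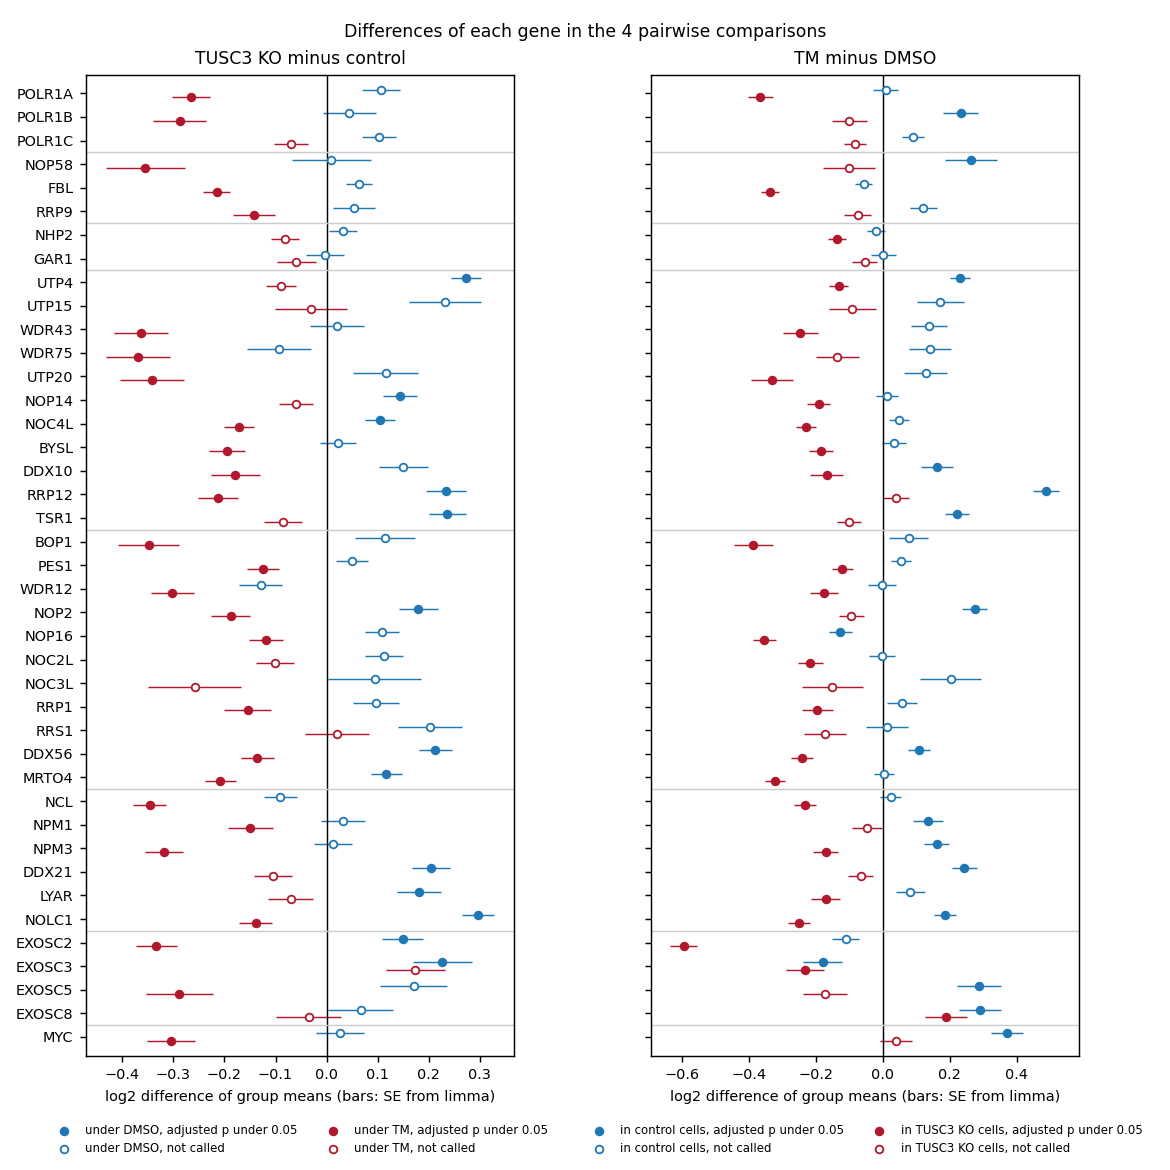
Log2 differences of group means for each of the 41 genes, with bars for the SE from limma. Filled points passed an adjusted p under 0.05. Left, TUSC3 KO minus control is mostly above 0 under DMSO and below 0 under TM. Right, TM minus DMSO lies mostly above 0 in control cells (34 genes) and below 0 in TUSC3 KO cells (38 genes).

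MYC RNA rose with TM in control cells, and its response differed between the genotypes. Its values were 8.29, 8.42 and 8.35 on the control DMSO arrays, 8.77, 8.75 and 8.65 with TM, 8.33, 8.42 and 8.38 on the TUSC3 KO DMSO arrays and 8.33, 8.46 and 8.46 on the TUSC3 KO TM arrays. The control TM arrays lay above all 9 others, and the other 3 groups overlapped. TM raised MYC 1.29-fold in control cells (log2 difference 0.37, SE 0.05, adjusted p = 0.000105 from limma), and the difference in TUSC3 KO cells was 0.04 (adjusted p = 0.6494 from limma). The interaction was -0.33 (SE 0.07, adjusted p = 0.0112 from limma). Among 12 genes of the MYC network, MXD1, a MAX partner that represses E-box genes, rose by 0.91 with TM in control and by 0.86 in TUSC3 KO cells. MAX rose by 0.16 in both. MLXIP, a glucose-responsive factor of the same network, was the only one of the 12 with a called interaction, at -0.41 (adjusted p = 0.002 from limma). That is 8.33% of the 12, beside 3.73% of all genes with an interaction called below 0.

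POLR1A and POLR1B form the catalytic centre of RNA polymerase I. POLR1A stood at 7.82, 7.73 and 7.79 on the control DMSO arrays, 7.76, 7.82 and 7.78 with TM, 7.82, 7.94 and 7.91 on the TUSC3 KO DMSO arrays and 7.50, 7.50 and 7.56 on the TUSC3 KO TM arrays. Every TUSC3 KO TM array was below every other array, while the 2 control groups overlapped. In TUSC3 KO cells TM lowered POLR1A by 1.29-fold (log2 difference -0.36, SE 0.04, adjusted p = 1.47e-05 from limma), and in control cells the difference was 0.01 (adjusted p = 0.9044 from limma). POLR1B read 6.54, 6.42 and 6.64 on control DMSO, 6.73, 6.81 and 6.75 on control TM, 6.53, 6.57 and 6.64 on TUSC3 KO DMSO and 6.45, 6.46 and 6.52 on TUSC3 KO TM arrays. Here the control TM arrays were the ones that stood above all the rest. POLR1B rose with TM in control cells by 0.23 (SE 0.05, adjusted p = 0.0057 from limma) and differed by -0.10 in TUSC3 KO cells (adjusted p = 0.2064 from limma). Its interaction of -0.33 was lost without control TM replicate 2 (adjusted p = 0.052) or TUSC3 KO DMSO replicate 3 (adjusted p = 0.0501 from limma), or with array centring (adjusted p = 0.064), and its rise in control cells did not pass the plain test (adjusted p = 0.1039). POLR1C, which RNA polymerases I and III share, was called only for the interaction (-0.17, adjusted p = 0.0476 from limma), and of the 12 arrays only control DMSO replicate 3 and TUSC3 KO TM replicate 2 could be left out without losing that call (adjusted p up to 0.1208).

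The other genes of RNA polymerase I gave a mixed picture. Of 11 tested, 4 were higher in TUSC3 KO under DMSO (36.4%, beside 6.58% of all genes). They were led by POLR1E at 0.54, POLR1G at 0.32 and POLR1F at 0.30. POLR1E and POLR1G, which form a subcomplex of the polymerase, were also the 2 of the 11 called for the interaction, at -0.55 and -0.39. These 2 are 18.2% of the 11, beside 3.73% of all genes called below 0. RRN3, the factor that brings the polymerase to its promoter, rose with TM in both genotypes, by 0.43 in control and 0.25 in TUSC3 KO cells.

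Of the box C/D snoRNP proteins, all 3 tested had lower values in TUSC3 KO cells under TM than the control. FBL and NOP58 belong to the particles that carry out ribose methylation of rRNA. FBL, the methyltransferase, stood at 9.63, 9.71 and 9.69 on the control DMSO arrays, 9.62, 9.62 and 9.61 with TM, 9.76, 9.71 and 9.74 on the TUSC3 KO DMSO arrays and 9.39, 9.43 and 9.39 on the TUSC3 KO TM arrays. The 3 TUSC3 KO TM arrays formed a separate low group. FBL fell by 0.34 with TM in TUSC3 KO cells (SE 0.03, adjusted p = 1.38e-06 from limma), and its interaction was -0.28 (SE 0.04, adjusted p = 0.000897 from limma). NOP58, a core scaffold protein, gave 8.87, 8.66 and 8.81 on control DMSO, 9.04, 9.05 and 9.03 on control TM, 8.87, 8.70 and 8.80 on TUSC3 KO DMSO and 8.69, 8.52 and 8.85 on TUSC3 KO TM arrays. Only its control TM arrays lay apart, above the others. NOP58 rose with TM in control cells by 0.26 (SE 0.08, adjusted p = 0.0265 from limma), a call lost without control DMSO replicate 2 or 3 or any 1 of the control TM arrays (adjusted p up to 0.1027). Under TM it was 0.36 lower in TUSC3 KO (SE 0.08, adjusted p = 0.0076 from limma), and its interaction of -0.36 did not pass (adjusted p = 0.0709 from limma).

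RRP9, a protein of the snoRNP that directs early precursor cuts, had the narrowest margin of the 3. Its arrays read 6.60, 6.66 and 6.61 on control DMSO, 6.78, 6.80 and 6.66 on control TM, 6.71, 6.66 and 6.67 on TUSC3 KO DMSO and 6.64, 6.61 and 6.56 on TUSC3 KO TM. Under TM the genotypes did not overlap, but the lowest control array and the highest KO array were 6.66 and 6.64. The difference was -0.14 (SE 0.04, adjusted p = 0.0344 from limma), lost without control TM replicate 1 or 2, TUSC3 KO TM replicate 2 or 3 or TUSC3 KO DMSO replicate 3 (adjusted p up to 0.1406), and also with quantile normalization again (adjusted p = 0.0521), array centring (adjusted p = 0.0578) and only the 2 groups in the fit (adjusted p = 0.1341 from limma).

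Of the box H/ACA proteins, which convert uridines of rRNA to pseudouridine, NHP2 was lower with TM in TUSC3 KO cells and GAR1 was called in none of the 5 comparisons. NHP2 read 7.27, 7.29 and 7.28 on control DMSO, 7.25, 7.26 and 7.26 on control TM, 7.29, 7.32 and 7.32 on TUSC3 KO DMSO and 7.15, 7.22 and 7.16 on TUSC3 KO TM arrays. Replicates were tight, and the TUSC3 KO TM arrays were the lowest. NHP2 fell by 0.14 with TM in TUSC3 KO cells (SE 0.03, adjusted p = 0.0023 from limma), and its interaction of -0.11 did not pass (adjusted p = 0.103 from limma). With TM in TUSC3 KO cells, 0 of 12 other snoRNP genes rose by limma, also at an unadjusted p under 0.05. Of all genes, 12.5% rose. In the same cells 7 of the 12 fell (58.3%, beside 14.9% of all genes). TCOF1, the nucleolar protein treacle that links polymerase I and rRNA methylation, had the lowest of these differences at -0.46, and its interaction was -0.39 (adjusted p = 0.000569 from limma).

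The small subunit is assembled on the small subunit processome, and 9 of its 11 genes tested here had an interaction called below 0, beside 3.73% of all genes. UTP20, a large scaffold protein of that machine, had array values of 7.88, 7.69 and 7.88 on control DMSO, 7.90, 7.97 and 7.98 on control TM, 7.91, 7.93 and 7.97 on TUSC3 KO DMSO and 7.55, 7.52 and 7.75 on TUSC3 KO TM. The TUSC3 KO TM arrays overlapped the control DMSO arrays, whose replicate 2 was at 7.69, and no array of the remaining groups. UTP20 fell by 0.33 with TM in TUSC3 KO cells (SE 0.06, adjusted p = 0.0019 from limma), the difference in control cells was 0.13 (adjusted p = 0.1883 from limma), and the interaction was -0.46 (SE 0.09, adjusted p = 0.0088 from limma).

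RRP12, whose yeast homologue serves in export of ribosome precursors, showed the largest rise of the 41 genes with TM in control cells. Its values were 6.96, 7.09 and 7.02 on control DMSO, 7.56, 7.50 and 7.48 on control TM, 7.23, 7.28 and 7.28 on TUSC3 KO DMSO and 7.27, 7.35 and 7.28 on TUSC3 KO TM arrays. The 2 control groups lay at the extremes and the TUSC3 KO groups overlapped between them. The rise in control cells was 1.40-fold (log2 difference 0.49, SE 0.04, adjusted p = 2.24e-06 from limma), against a difference of 0.04 in TUSC3 KO cells (adjusted p = 0.5511 from limma) and an interaction of -0.45 (SE 0.06, adjusted p = 0.000605 from limma).

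WDR43 and WDR75 belong with UTP4 and UTP15 to the subcomplex that binds the nascent precursor first. WDR43 read 8.82, 8.79 and 8.85 on control DMSO, 8.88, 9.01 and 8.99 on control TM, 8.86, 8.81 and 8.85 on TUSC3 KO DMSO and 8.56, 8.50 and 8.72 on TUSC3 KO TM arrays, which were lower than all others. It fell by 0.25 with TM in TUSC3 KO cells (SE 0.05, adjusted p = 0.0037 from limma) and had an interaction of -0.38 (SE 0.07, adjusted p = 0.0082 from limma). WDR75 read 8.22, 8.07 and 8.28 on control DMSO, 8.27, 8.38 and 8.35 on control TM, 8.07, 8.09 and 8.13 on TUSC3 KO DMSO and 7.99, 7.84 and 8.06 on TUSC3 KO TM arrays. Its lowest arrays were those of TUSC3 KO with TM, just under TUSC3 KO with DMSO. Under TM it was 0.37 lower in TUSC3 KO (SE 0.06, adjusted p = 0.0016 from limma), and its interaction of -0.28 did not pass (adjusted p = 0.0937 from limma).

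UTP4 changed in both directions, at 9.55, 9.49 and 9.58 on control DMSO, 9.77, 9.79 and 9.76 on control TM, 9.84, 9.77 and 9.83 on TUSC3 KO DMSO and 9.66, 9.67 and 9.72 on TUSC3 KO TM arrays. Both TM groups lay between the 2 DMSO groups apart from an overlap of control TM with TUSC3 KO DMSO. UTP4 rose by 0.23 with TM in control cells (SE 0.03, adjusted p = 9.46e-05 from limma) and fell by 0.13 in TUSC3 KO cells (SE 0.03, adjusted p = 0.0051 from limma), where the fall was lost with array centring (adjusted p = 0.0713). DDX10, an RNA helicase, rose by 0.16 and fell by 0.17, and either call was lost without any 1 of 4 arrays (adjusted p up to 0.1074 and 0.091, from limma): for the rise, control DMSO replicate 1 or 2 or control TM replicate 2 or 3, and for the fall, TUSC3 KO TM replicate 1 or 2 or TUSC3 KO DMSO replicate 1 or 3. TSR1, a factor of late cytoplasmic steps, rose by 0.22 in control cells and differed by -0.10 in TUSC3 KO cells (adjusted p = 0.0678 from limma), with an interaction of -0.32.

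NOP14 and NOC4L, partners in the processome, and BYSL, a factor of late small subunit precursors, fell with TM in TUSC3 KO cells by 0.19, 0.23 and 0.18 and were not called in control cells (0.01, 0.05 and 0.03). Their interactions were -0.20, -0.28 and -0.22. That of NOP14 was lost without any 1 of 6 arrays (control DMSO replicate 1, control TM replicate 1 or 2, TUSC3 KO TM replicate 1, TUSC3 KO DMSO replicate 2 or 3, adjusted p up to 0.068), and that of BYSL without control DMSO replicate 1, control TM replicate 1, TUSC3 KO TM replicate 1 or TUSC3 KO DMSO replicate 2 (adjusted p up to 0.069 from limma). The call of NOC4L as 0.11 higher in TUSC3 KO under DMSO was lost without any 1 of 6 arrays (control DMSO replicate 1 or 3, control TM replicate 2 and each TUSC3 KO DMSO array, adjusted p up to 0.1481), and that of NOP14 as 0.14 higher without control DMSO replicate 1 or 2 or TUSC3 KO DMSO replicate 2 or 3 (adjusted p up to 0.0716 from limma). UTP15 was called in no comparison, and control DMSO replicate 2, at 7.20 beside 7.48 and 7.45, widened its spread.

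In the PeBoW complex, whose proteins BOP1, PES1 and WDR12 act on the large subunit precursor, all 3 were called lower with TM in TUSC3 KO cells, and array centring ended the calls of PES1 (adjusted p = 0.0519) and WDR12 (adjusted p = 0.052 from limma). BOP1 stood at 7.49, 7.69 and 7.61 on control DMSO, 7.69, 7.69 and 7.64 on control TM, 7.68, 7.73 and 7.71 on TUSC3 KO DMSO and 7.32, 7.44 and 7.21 on TUSC3 KO TM arrays. All TUSC3 KO TM arrays were below all the others, which overlapped. BOP1 fell 1.31-fold with TM in TUSC3 KO cells (log2 difference -0.39, SE 0.06, adjusted p = 0.000357 from limma), against 0.08 in control cells (adjusted p = 0.4127 from limma), and its interaction was -0.46 (SE 0.08, adjusted p = 0.0057 from limma). PES1 fell by 0.12 and WDR12 by 0.17 in TUSC3 KO cells, with 0.05 and 0.00 in control cells. The interaction of WDR12 did not pass (-0.17, adjusted p = 0.1166 from limma), and that of PES1 (-0.17, adjusted p = 0.0334 from limma) kept its call only without control DMSO replicate 2, TUSC3 KO TM replicate 1 or TUSC3 KO TM replicate 3, and lost it without each other array (adjusted p up to 0.0939). The lower PES1 value in TUSC3 KO under TM (-0.12) was lost without control TM replicate 2 (adjusted p = 0.0781 from limma).

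MRTO4, which holds the place of a stalk protein on large subunit precursors, was higher in TUSC3 KO under DMSO and lower under TM. Its values were 7.65, 7.61 and 7.65 on control DMSO, 7.67, 7.62 and 7.63 on control TM, 7.76, 7.73 and 7.78 on TUSC3 KO DMSO and 7.48, 7.43 and 7.39 on TUSC3 KO TM arrays. The control groups overlapped, with TUSC3 KO DMSO above and TUSC3 KO TM below them. MRTO4 fell by 0.32 with TM in TUSC3 KO cells (SE 0.03, adjusted p = 6.63e-06 from limma) and differed by 0.00 in control cells (adjusted p = 0.9508 from limma). Its higher level in TUSC3 KO under DMSO (0.12, adjusted p = 0.0236 from limma) was lost without control DMSO replicate 1 or 2 or TUSC3 KO DMSO replicate 1 or 3 (adjusted p up to 0.1001).

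NOP16, a nucleolar protein of large subunit assembly, fell with TM in both genotypes. It stood at 7.12, 7.12 and 7.18 on control DMSO, 6.97, 7.01 and 7.06 on control TM, 7.25, 7.22 and 7.27 on TUSC3 KO DMSO and 6.93, 6.88 and 6.88 on TUSC3 KO TM arrays. No 2 of these groups overlapped. The fall was 0.35 in TUSC3 KO cells (SE 0.03, adjusted p = 7.49e-06 from limma) and 0.13 in control cells (SE 0.03, adjusted p = 0.0149 from limma), the latter lost without control DMSO replicate 3 or control TM replicate 1 or 2 (adjusted p up to 0.0689). Its interaction was -0.23 (SE 0.05, adjusted p = 0.0124 from limma), and the lower level in TUSC3 KO under TM (-0.12) was lost without control TM replicate 2 or 3 or TUSC3 KO TM replicate 2 or 3 (adjusted p up to 0.1183 from limma).

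Among the remaining large subunit genes, NOP2, a methyltransferase of the large rRNA, rose by 0.27 with TM in control cells and had an interaction of -0.37 (SE 0.05, adjusted p = 0.0017 from limma). DDX56, a helicase, rose by 0.11 in control and fell by 0.24 in TUSC3 KO cells, with an interaction of -0.35 (SE 0.05, adjusted p = 0.000822 from limma). Its rise was lost without control DMSO replicate 1 or 2 or control TM replicate 1 or 2 (adjusted p up to 0.1124), and its lower level in TUSC3 KO under TM (-0.14) without control TM replicate 2 (adjusted p = 0.0601 from limma). NOC2L and RRP1, assembly factors of the nucleolus, fell in TUSC3 KO cells by 0.22 and 0.20. Their interactions (-0.21 and -0.25) were lost without any 1 of 7 and any 1 of 10 arrays (adjusted p up to 0.0867 and 0.0924). For NOC2L only control DMSO replicate 3, control TM replicate 3, TUSC3 KO TM replicates 2 and 3 and TUSC3 KO DMSO replicate 1 could be left out with the call kept, and for RRP1 only control DMSO replicate 3 and TUSC3 KO TM replicate 2. The lower level of RRP1 in TUSC3 KO under TM (-0.15) was kept without each control DMSO array and without TUSC3 KO TM replicate 2, and lost without each of the other 8 (adjusted p up to 0.115 from limma). NOC3L and RRS1 were called in no comparison, and their interactions were -0.35 (adjusted p = 0.1423 from limma) and -0.18 (adjusted p = 0.2933 from limma).

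Of the nucleolar proteins with wider roles, NOLC1 gave the interaction with the lowest adjusted p of the 41 genes. NOLC1, a chaperone of snoRNPs, stood at 8.31, 8.24 and 8.33 on control DMSO, 8.49, 8.50 and 8.46 on control TM, 8.56, 8.59 and 8.63 on TUSC3 KO DMSO and 8.31, 8.34 and 8.38 on TUSC3 KO TM arrays. TUSC3 KO DMSO lay above control TM, and the other 2 groups overlapped at a lower level. NOLC1 rose by 0.19 with TM in control cells (SE 0.03, adjusted p = 0.000958 from limma) and fell by 0.25 in TUSC3 KO cells (SE 0.03, adjusted p = 9.65e-05 from limma). The interaction was -0.44 (SE 0.05, adjusted p = 0.000193 from limma).

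NCL, or nucleolin, an abundant RNA-binding protein of the nucleolus, had values of 9.65, 9.61 and 9.62 on control DMSO, 9.62, 9.68 and 9.66 on control TM, 9.53, 9.54 and 9.54 on TUSC3 KO DMSO and 9.33, 9.23 and 9.36 on TUSC3 KO TM arrays. TUSC3 KO arrays were below control arrays in both treatments, and lowest with TM. TUSC3 KO minus control was -0.09 under DMSO (adjusted p = 0.1078 from limma) and with TM it was -0.35 (SE 0.03, adjusted p = 1.85e-05 from limma), with an interaction of -0.26 (SE 0.05, adjusted p = 0.0057 from limma) that was lost with array centring (adjusted p = 0.0547). NPM3, a relative of nucleophosmin, gave 7.07, 7.13 and 7.07 on control DMSO, 7.28, 7.29 and 7.18 on control TM, 7.06, 7.13 and 7.12 on TUSC3 KO DMSO and 6.95, 6.94 and 6.92 on TUSC3 KO TM arrays. The DMSO groups coincided, with control TM above and TUSC3 KO TM below. It rose by 0.16 in control cells (SE 0.04, adjusted p = 0.0065 from limma) and fell by 0.17 in TUSC3 KO cells (SE 0.04, adjusted p = 0.0041 from limma).

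DDX21, a helicase of rRNA transcription and processing, rose by 0.24 with TM in control cells and differed by -0.07 in TUSC3 KO cells (adjusted p = 0.2513 from limma), with an interaction of -0.31. LYAR, a nucleolar protein abundant in dividing cells, fell by 0.17 in TUSC3 KO cells, a call lost without TUSC3 KO DMSO replicate 1 or 3 (adjusted p up to 0.0557). LYAR read 6.6354 on each of the 3 control TM arrays, so that group added no spread to its tests. Its interaction of -0.25 was kept only without control DMSO replicate 2, TUSC3 KO TM replicate 2 or TUSC3 KO DMSO replicate 2 (adjusted p otherwise up to 0.0748), and its higher level in TUSC3 KO under DMSO (0.18) was lost without control DMSO replicate 1 or 3 or TUSC3 KO DMSO replicate 1 or 3 (adjusted p up to 0.0788 from limma). NPM1, or nucleophosmin, ranged from 9.87 to 10.17 over the 12 arrays. Its rise by 0.13 with TM in control cells (adjusted p = 0.0443 from limma) was lost without any array other than the 3 TUSC3 KO TM arrays (adjusted p up to 0.1359), and its lower level in TUSC3 KO under TM (-0.15, adjusted p = 0.0373 from limma) without control DMSO replicate 1, each control TM array, TUSC3 KO TM replicate 2 or TUSC3 KO DMSO replicate 3 (adjusted p up to 0.1162).

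The 4 exosome genes did not move as 1 group. EXOSC2, a cap protein of the ring, had the largest fall of the 41 genes, with values of 7.73, 7.73 and 7.78 on control DMSO, 7.64, 7.62 and 7.64 on control TM, 7.82, 7.93 and 7.93 on TUSC3 KO DMSO and 7.23, 7.31 and 7.36 on TUSC3 KO TM arrays. The groups did not overlap, and the genotypes changed places between DMSO and TM. TM lowered EXOSC2 1.51-fold in TUSC3 KO cells (log2 difference -0.59, SE 0.04, adjusted p = 4.63e-07 from limma), the difference in control cells was -0.11 (adjusted p = 0.0677 from limma), and the interaction was -0.48 (SE 0.06, adjusted p = 0.00041 from limma). Its higher level in TUSC3 KO under DMSO (0.15, adjusted p = 0.0299 from limma) was lost without control DMSO replicate 1 or 2 or TUSC3 KO DMSO replicate 2 or 3 (adjusted p up to 0.1232).

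EXOSC5, a ring protein with a pair of E-boxes in its window, read 9.43, 9.43 and 9.67 on control DMSO, 9.81, 9.83 and 9.76 on control TM, 9.59, 9.77 and 9.69 on TUSC3 KO DMSO and 9.52, 9.56 and 9.45 on TUSC3 KO TM arrays. It was highest on control TM arrays apart from 1 TUSC3 KO DMSO array at 9.77. TM raised it by 0.29 in control cells (SE 0.07, adjusted p = 0.0063 from limma), the difference in TUSC3 KO cells was -0.17 (adjusted p = 0.0766 from limma), and the interaction was -0.46 (SE 0.09, adjusted p = 0.0103 from limma).

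EXOSC8, another ring protein, was the exception that rose with TM in both genotypes. It stood at 6.53, 6.33 and 6.49 on control DMSO, 6.71, 6.74 and 6.77 on control TM, 6.57, 6.43 and 6.55 on TUSC3 KO DMSO and 6.72, 6.59 and 6.80 on TUSC3 KO TM arrays. The TM arrays were above the DMSO arrays within each genotype, and the genotypes overlapped. The rise was 0.29 in control cells (SE 0.06, adjusted p = 0.0049 from limma) and 0.19 in TUSC3 KO cells (SE 0.06, adjusted p = 0.0466 from limma), and the latter was kept only without control DMSO replicate 1 or 2 or TUSC3 KO TM replicate 2, with an adjusted p up to 0.1761 otherwise. EXOSC3, the other cap protein, fell with TM by 0.18 in control cells and by 0.23 in the KO clone, and under DMSO it was 0.23 higher in the clone. Its fall in control cells was kept only without control TM replicate 2, TUSC3 KO TM replicate 2 or 3 or TUSC3 KO DMSO replicate 3 (adjusted p otherwise up to 0.162), and its higher level was lost without each control DMSO array and without TUSC3 KO DMSO replicate 2 or 3 (adjusted p up to 0.0963 from limma). Its interaction was -0.05 (adjusted p = 0.7922 from limma).

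**Figure D3:**
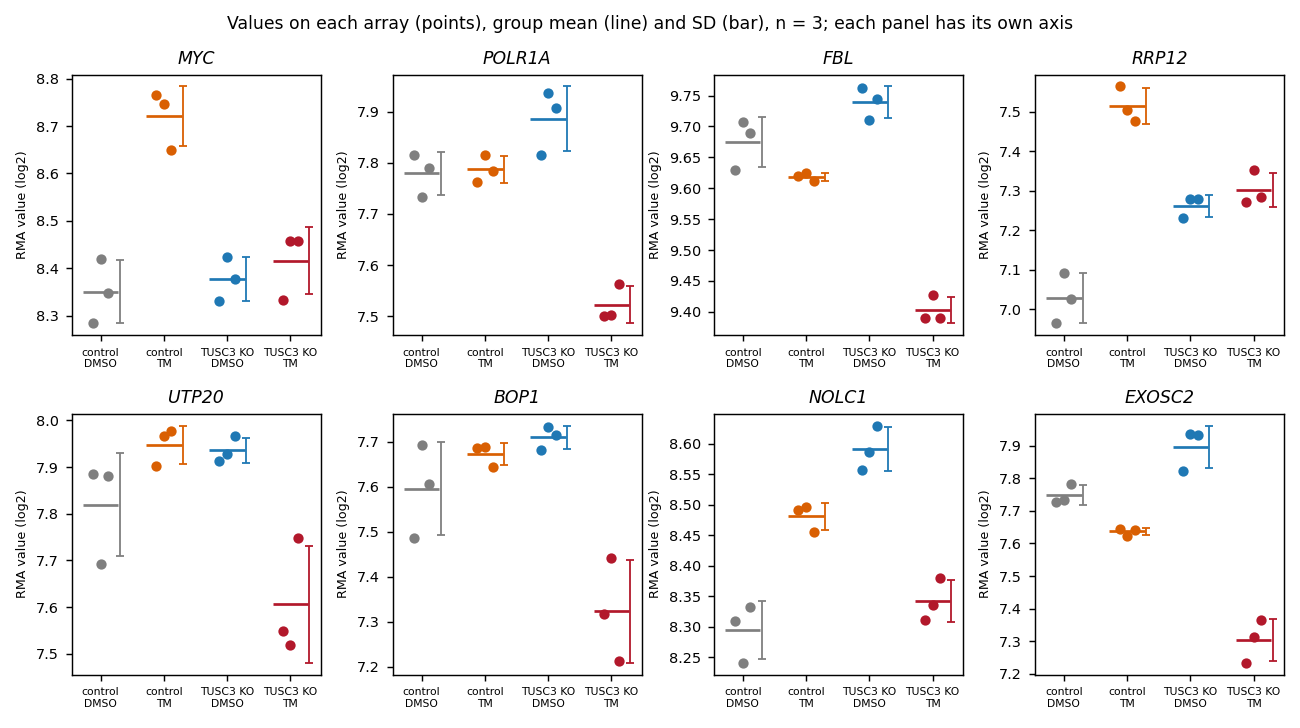
RMA log2 values on each array for MYC, POLR1A, FBL, RRP12, UTP20, BOP1, NOLC1 and EXOSC2, with the group mean as a line and the SD as a bar (n = 3), each panel on its own axis. RRP12 and MYC are highest on control TM arrays, and POLR1A, FBL, BOP1 and EXOSC2 are lowest on TUSC3 KO TM arrays, where EXOSC2 lies between 7.23 and 7.36.

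The wider pathway was counted in lists written from general knowledge, 137 tested genes of ribosome biogenesis and the exosome other than the 41. Of these, limma called 38 higher and 0 lower in TUSC3 KO under DMSO, with 1 lower at an unadjusted p under 0.05, and 7 were higher and 26 lower under TM. These are 27.7% higher and 0% lower under DMSO, beside 6.58% and 6.11% of all genes, and 5.11% and 19.0% under TM, beside 8.99% and 7.97%. Without TUSC3 KO DMSO replicate 3, the 38 became 22, and without control TM replicate 1 or 2 or TUSC3 KO TM replicate 1 or 3 the 7 became 4. With TM, 40 rose and 15 fell in control cells, and 16 rose and 58 fell in TUSC3 KO cells. The shares were 29.2% and 10.9% in control cells, beside 11.2% and 13.6% of all genes, and 11.7% and 42.3% in TUSC3 KO cells, beside 12.5% and 14.9%. The rises in TUSC3 KO cells and the falls in control cells were thus near or below the share of all genes. The interaction was called below 0 for 44 (32.1%, beside 3.73% of all genes) and above 0 for 1 (0.73%, beside 4.18%), RIOK3, with a median of -0.14 beside -0.28 for the 41 genes. The count above 0 was 0 with array centring, and without control DMSO replicate 1 or 3, any control TM array, TUSC3 KO TM replicate 1 or 3 or TUSC3 KO DMSO replicate 1 or 2.

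Small subunit genes outside the 41 made up 48 of these, and 17 had an interaction below 0 (35.4%, beside 3.73% of all genes). NOL6, a processome protein, was 0.56 higher in TUSC3 KO under DMSO and had an interaction of -0.55 (SE 0.05, adjusted p = 9.82e-05 from limma). NAT10, which acetylates small subunit rRNA, had an interaction of -0.43 (SE 0.06, adjusted p = 0.0016 from limma). RIOK3, a kinase tied to late small subunit precursors, went against the list and rose with TM by 0.41 in control and 0.76 in TUSC3 KO cells, with an interaction of 0.35 (SE 0.09, adjusted p = 0.0378 from limma). Of 46 large subunit genes, 21 had an interaction below 0 by limma (45.7%, beside 3.73% of all genes). Above 0 there were 0 (0 at an unadjusted p under 0.05), beside 4.18% of all genes called. NLE1 stood at -0.43 and PAK1IP1 at -0.37, both factors of large subunit maturation. SBDS, which acts late in large subunit maturation, was higher in TUSC3 KO in both treatments, by 0.29 under DMSO and 0.36 under TM. Of 20 further exosome genes, 5 rose and 6 fell with TM in TUSC3 KO cells, and only DIS3L, a cytoplasmic exosome nuclease, was called for the interaction (-0.32, adjusted p = 0.0056 from limma).

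Genes for the proteins of the finished ribosome rose with TM more often than they fell, in both genotypes. Of 48 cytosolic ribosomal protein genes tested out of 80 listed, 20 rose and 1 fell with TM in control cells, and 19 rose and 3 fell in TUSC3 KO cells. The shares were 41.7% and 2.08% in control cells, beside 11.2% and 13.6% of all genes, and 39.6% and 6.25% in TUSC3 KO cells, beside 12.5% and 14.9%. RPL12 of the large subunit rose by 0.27 and 0.23. Between the genotypes, 1 was higher and 9 lower in TUSC3 KO under DMSO (18.8% lower, beside 6.11% of all genes). Under TM, 1 was higher and 14 lower (29.2% lower, beside 7.97%). The interaction was called below 0 for 2 (4.17%, beside 3.73% of all genes), RPS7 at -0.18 and RPL8 at -0.13, with a median of -0.04 over the list. Of 22 RNA polymerase III genes, 5 had an interaction below 0 by limma (22.7%, beside 3.73% of all genes), among them the subunit gene POLR3G at -0.43. Above 0 there were 0 (1 at an unadjusted p under 0.05), beside 4.18% of all genes called. CACGTG was in the window of 40.5% of the other small subunit genes, 30.4% of the large subunit genes and 35.3% of the RNA polymerase III genes. It was in 6.25% of those of ribosomal proteins and 5.56% of the other exosome genes. The other RNA polymerase I genes had it in 9.09% and the other snoRNP genes in 12.5%, beside 10.5% of the genes tested. A list of cell proliferation genes had it in 33.3%, and the MYC network genes in 25.0%.

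**Figure D4:**
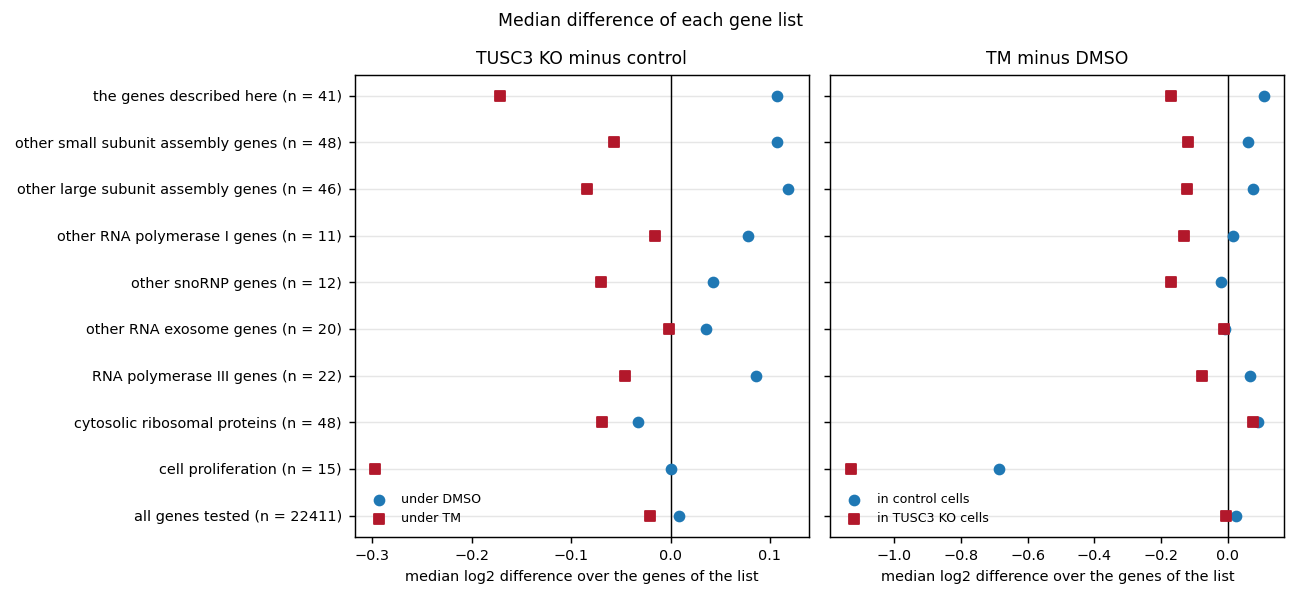
Median log2 difference over the genes of each list, TUSC3 KO minus control on the left and TM minus DMSO on the right. The 41 genes have medians of 0.11 under DMSO and -0.17 under TM on the left, and ribosomal proteins stay above 0 with TM in both genotypes (0.09 in control and 0.07 in TUSC3 KO cells) on the right.

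The genes with CACGTG in their windows were set beside those without it, as a description. Of 15 tested genes with the motif, 12 had an interaction below 0, with a median of -0.31, and of 20 without it 13 did, with a median of -0.26. Under TM, 9 of the 15 and 13 of the 20 were lower in TUSC3 KO. No test was made of these counts, and GAR1 and NOC3L, called in no comparison, have the motif.

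Genes of cell proliferation also differed between the genotypes under TM. Of 15 tested, all fell with TM in both genotypes, where 13.6% of all genes fell in control and 14.9% in TUSC3 KO cells. The median was -0.69 in control and -1.13 in TUSC3 KO cells. Under TM 11 had lower values in TUSC3 KO cells than in control (73.3%, beside 7.97% of all genes), with a median of -0.30. In that comparison 0 were higher by limma (0 at an unadjusted p under 0.05). With DMSO, 1 was higher and 2 were lower (6.67% and 13.3%, beside 6.58% and 6.11%). The interaction was below 0 for 9 (60.0%, beside 3.73% of all genes), with a median of -0.29 over the list beside -0.28 for the 41 genes. Among the 9 were MCM5 (-0.48) and MCM7 (-0.47) of the replicative helicase and PLK1 (-0.46), a mitotic kinase. The part of proliferation in the changes of the ribosome biogenesis genes was not tested.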

How the data were processed

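RNA of 12 samples was hybridised to HTA 2.0 arrays, a one-colour platform with probes along exons. The authors deposited log2 values from RMA, a method that removes background, forces 1 distribution on all arrays by quantiles and summarises the probes of a transcript cluster. The sources used here give neither its version nor an annotation build. Of 70523 features, 23781 carried 1 symbol, 1543 several and 45199 none in the annotation used. Symbols were updated (306 changed), and each of 22411 was tested with its brightest feature. Values carry no detection call, and precision is limited by having 3 arrays per group. Between 2 arrays, up to 4.77% of features had identical values. No group mean of a member lay under the median of all values.

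The 4 group means entered limma 3.58.1 (R 4.3.3), with a variance trend, 1 spread per gene over 12 arrays and Benjamini-Hochberg adjustment. The interaction is the TM response in TUSC3 KO minus that in control cells. Array values were given for MYC, up to 3 called genes with the largest difference per role, up to 5 with the largest called interaction, and, chosen after the values were seen, UTP4. Up to 3 genes each way per list and comparison were named. The genes and lists were chosen with earlier results of these data known. Alternatives were quantile normalization again, array median centring, no variance trend, only the 2 groups compared and a replicate block. Others were the mean of features, dim genes removed, the plain t-test of 2 groups and each array left out. The DMSO comparison was also run on simulated data. Promoter windows came from RefSeq, and tables and figures used Python 3.11.15 with pandas 2.3.3 and matplotlib 3.10.9.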

Additional observations from a re-analysis of the deposited data

Results flagged for a closer look

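The response to TM differed between TUSC3 KO and control cells, by limma's interaction term over all 22411 genes, for 29 of the 41 genes. All 29 estimates were negative, where 3.73% of all genes were called below 0 and 4.18% above it. The adjusted p of the 29 ran from 0.000193 for NOLC1 to 0.0476 for POLR1C. On the log2 scale the response in TUSC3 KO minus that in control cells was lowest for EXOSC2 (-0.48), BOP1 (-0.46), EXOSC5 (-0.46), UTP20 (-0.46), RRP12 (-0.45) and NOLC1 (-0.44). A middle group was made of WDR43 (-0.38), POLR1A (-0.37), NOP2 (-0.37), UTP4 (-0.36), DDX56 (-0.35), POLR1B (-0.33), NPM3 (-0.33), MYC (-0.33), DDX10 (-0.33), MRTO4 (-0.33), TSR1 (-0.32) and DDX21 (-0.31). The differences nearest to 0 among those called were those of FBL (-0.28), NOC4L (-0.28), NCL (-0.26), LYAR (-0.25), RRP1 (-0.25), NOP16 (-0.23), BYSL (-0.22), NOC2L (-0.21), NOP14 (-0.20), PES1 (-0.17) and POLR1C (-0.17). Of these 29 calls, 21 were kept whichever array was left out and 8 were lost without at least 1 array, those of POLR1B, POLR1C, NOP14, BYSL, PES1, NOC2L, RRP1 and LYAR. Array median centring left 22 calls and ended those of DDX10 (adjusted p = 0.0627) and NCL (adjusted p = 0.0547) as well, which no left-out array ended, beside those of POLR1B, POLR1C, NOP14, PES1 and NOC2L.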

How the results depend on the processing

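Of 111 calls of the 41 genes in the 5 comparisons, 81 were kept whichever array was left out, 30 were lost without at least 1 array and 0 changed direction, and no alternative below reversed a called difference. Over the arrays left out, the genes called higher and lower ranged from 7 to 15 and 0 to 1 in TUSC3 KO under DMSO, 0 to 1 and 20 to 29 under TM, 11 to 17 and 0 to 3 with TM in control cells, 0 to 1 and 22 to 26 with TM in TUSC3 KO cells, and 0 to 0 and 22 to 29 for the interaction. The 5 medians, in that order, ranged from 0.0992 to 0.126, -0.1861 to -0.1592, 0.0815 to 0.1163, -0.1853 to -0.151 and -0.3229 to -0.2762, the last at its lowest without TUSC3 KO TM replicate 3. For the 137 other ribosome biogenesis and exosome genes the counts higher and lower ranged from 22 to 43 and 0 to 1, 4 to 9 and 20 to 32, 35 to 45 and 10 to 18, 13 to 17 and 45 to 61, and 0 to 2 and 34 to 48. The plain t-test called 5 genes higher and 1 lower in TUSC3 KO under DMSO and 11 lower under TM. With TM it called 9 higher and 1 lower in control and 0 higher in TUSC3 KO cells. For the other genes it called 11 higher under DMSO, 4 higher and 7 lower under TM, and 8 higher and 32 lower with TM in TUSC3 KO cells. Quantile normalization again called 2 lower in TUSC3 KO under DMSO and 1 lower with TM in control cells. Array median centring called 1 lower with TM in control cells and 0 higher in TUSC3 KO cells, and of the other genes 14 lower in TUSC3 KO under TM and 0 above 0 for the interaction. No variance trend called 0 higher with TM in TUSC3 KO cells, and only the 2 groups compared called 0 there, 1 lower in TUSC3 KO under DMSO and 4 of the other genes higher under TM. With dim genes left out, 1 gene, EXOSC3, was higher in TUSC3 KO under TM. With CACGCG and CATGTG counted as well, 28 promoters held an E-box. The cause of these moves was not tested. The deviations of same-numbered arrays from their group means correlated at -0.0646 to 0.174 for number 1, -0.0981 to 0.386 for number 2 and 0.134 to 0.344 for number 3. Not every pair was over 0.1, so the samples were not taken as paired, although all pairs of number 3 were and 7 of 12 arrays were closest to their own number, a hint from the data and not from the design. A fit with the replicate block called 16 higher and 0 lower, 0 and 30, 16 and 3, 1 and 25, and 0 and 32 of the 41 genes in the 5 comparisons and 2 of the other genes above 0 for the interaction.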
